A study of Drosophila melanogaster with 2 samples.

Results

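The genes of the proteasome were followed through the peak lists of a chromatin immunoprecipitation sequencing (ChIP-seq) study of a Notch-responsive repressor in Drosophila melanogaster embryos. They were the protein-coding genes whose symbol begins with Prosalpha, Prosbeta, Rpt or Rpn followed by a number, and 48 of the 13945 protein-coding genes on the 6 chromosome arms met this rule. Of these, 32 carried the plain symbol of a subunit and are called somatic subunits here: 14 of the core particle (7 alpha and 7 beta) and 18 of the regulatory particle (6 Rpt and 12 Rpn). The remaining 16 had a letter T or R after the subunit number, as in Prosalpha3T or Rpt3R, and are called paralogues; 11 belonged to the core and 5 to the regulatory particle. The rule used symbols only and no measured value, but it was chosen with earlier results of these data known.

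The data came from 1 group, E(spl)m3-GFP ChIP, of 2 biological replicates that the labels number 2 and 3. Whole embryos aged 0 to 24 h, of both sexes, came from a transgenic line that stably makes E(spl)m3-HLH joined at its C terminus to green fluorescent protein (GFP), and the chromatin was sonicated to 200 to 800 bp. The description names an antibody against GFP, whereas the antibody field names E(spl)m3-HLH. The promoter that drives the tagged protein is not stated, the embryos mix all stages and tissues, and no control or untagged sample was analysed here.

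The 26S proteasome degrades proteins marked with ubiquitin. Its core particle is a barrel in which rings of beta subunits, of which Prosbeta1, Prosbeta2 and Prosbeta5 are the catalytic ones, are enclosed by rings of alpha subunits that form the gate. The regulatory particle recognises ubiquitin, removes it and feeds the unfolded protein into the core; the Rpt proteins are its ATPases, and the Rpn proteins are its scaffold, ubiquitin receptors and deubiquitinase. In Drosophila several T and R paralogues are known as forms of the male germline. The tagged protein, E(spl)m3-HLH, belongs to the Hairy/Enhancer of split repressors, which carry a basic helix-loop-helix domain; such repressors are known to bind E-box and N-box sequences.

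Sequences at the main peaks are shown so that the letters beneath a summit can be read directly. They run 5′ to 3′ on the strand of the named gene and come from the RefSeq copy of Release 6 of the genome (dm6). Each peak window reaches 50 bp to each side of the summit and was shortened where it would have held more than 30 bases of annotated exon. Rpn3 and Rpn5 had the strongest peaks at any somatic subunit, and Prosbeta2 the strongest at a core gene. Rpt5 was the only ATPase gene with a thresholded peak. Rpn11 was the only subunit with thresholded peaks and no divergent neighbour starting within 1 kb. Prosbeta6 and the paralogues Prosbeta2R1 and Prosalpha6T, with no summit within 1 kb in any list, are shown by the bases upstream of their start sites. Capitals mark matches, on either strand, to the DNA replication-related element (DRE, TATCGATA) or to the N-box (CACNAG); matches to shorter or looser sequences were not capitalised.
Rpn3, summit 18 bp upstream (chr2L:19051722-19051819, plus strand): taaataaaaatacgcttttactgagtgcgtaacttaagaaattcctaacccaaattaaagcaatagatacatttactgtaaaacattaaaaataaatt
Rpn5, summit 270 bp upstream (chr3R:5789173-5789273, plus strand): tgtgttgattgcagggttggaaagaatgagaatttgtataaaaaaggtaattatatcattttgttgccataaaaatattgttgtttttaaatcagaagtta
Rpn5, summit 62 bp upstream (chr3R:5789381-5789481, plus strand): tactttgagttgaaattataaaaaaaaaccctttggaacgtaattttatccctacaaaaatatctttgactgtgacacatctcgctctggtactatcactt
Prosbeta2, summit 202 bp upstream (chr3L:14999699-14999799, plus strand): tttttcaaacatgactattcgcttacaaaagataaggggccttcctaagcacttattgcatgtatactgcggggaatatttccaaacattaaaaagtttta
Prosbeta2, summit 3 bp upstream (chr3L:14999898-14999980, plus strand): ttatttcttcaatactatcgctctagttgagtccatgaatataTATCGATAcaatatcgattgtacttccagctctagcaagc
Rpt5, summit 20 bp upstream (chr3R:23752806-23752876, plus strand): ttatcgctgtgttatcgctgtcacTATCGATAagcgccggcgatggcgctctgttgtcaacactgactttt
Rpn11, summit 128 bp upstream (chr2L:5059868-5059968, minus strand): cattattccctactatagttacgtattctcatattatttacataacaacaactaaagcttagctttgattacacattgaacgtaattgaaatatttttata
Prosbeta6, no summit (chr3L:16610419-16610538, minus strand): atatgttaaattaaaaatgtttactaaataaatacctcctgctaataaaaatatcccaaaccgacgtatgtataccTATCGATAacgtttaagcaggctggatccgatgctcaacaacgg
Prosbeta2R1, no summit (chrX:5808834-5808953, plus strand): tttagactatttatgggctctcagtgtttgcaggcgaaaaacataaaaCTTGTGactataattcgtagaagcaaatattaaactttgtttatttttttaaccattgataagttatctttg
Prosalpha6T, no summit (chr2L:13231919-13232038, plus strand): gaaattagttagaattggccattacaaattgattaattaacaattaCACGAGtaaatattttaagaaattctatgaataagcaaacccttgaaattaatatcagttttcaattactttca

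None of the 7 peak windows held an N-box in these letters, and a DRE stood in those of Prosbeta2 (summit 3 bp upstream) and Rpt5. Prosbeta6 also carried a DRE, 44 bp upstream of its start site, without a peak in any list. Both paralogue stretches held an N-box without a peak, but they do not stand for all paralogues. Over promoters of 300 bp the N-box was in 7 of 16 paralogues (43.8%), against 29.7% of all protein-coding genes. Of all 14 thresholded windows near members, 1 held an N-box (7.14%), against 10.6% of those near any protein-coding start site. A match is a description of the letters and does not show a bound site.

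A thresholded summit within 1 kb of a start site was found for 11 of 32 somatic subunits (34.4%), against 26.8% of all protein-coding genes. Each of these 11 had its strongest peak upstream of the gene's nearest annotated start site, which at Rpn6 and Rpn8 is the more downstream of 2, so that those summits lie in an intron of the longer transcript. No paralogue was reached by a thresholded summit (0 of 16, a small set of genes), so that 11 of all 48 members (22.9%) were. The thresholded list holds the 5701 peaks that passed the irreproducible discovery rate (IDR) procedure of the authors, which ranks peaks between replicates. It was identical to the 5701 strongest of the 25791 peaks that the authors called on both replicates together, the pooled list. The signal is the authors' own value for each peak, on a scale set within each list, so values are compared within a list and by rank between lists. Read depth is unknown, and shares of a fixed set of genes carry no replicate error other than the lists of replicates 2 and 3 given beside them.

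**Figure D1:**
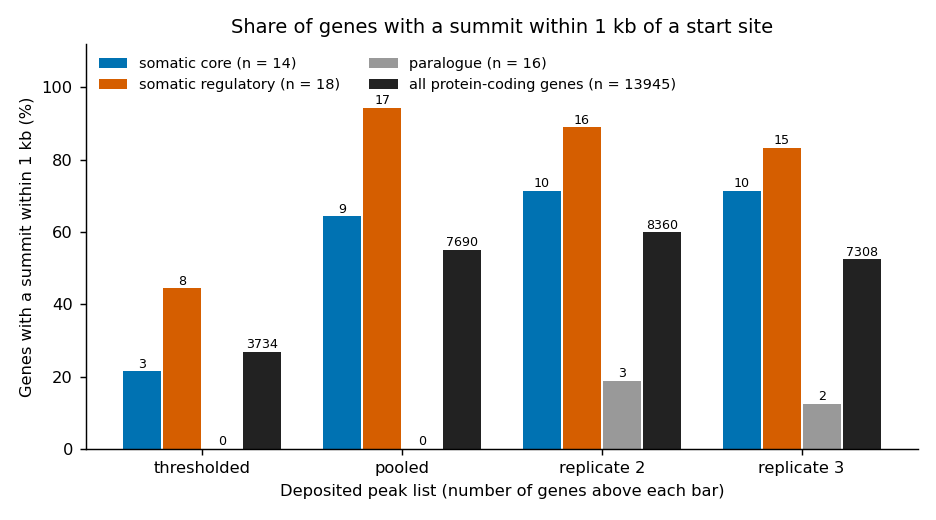
Share of genes (percent, vertical axis) with a summit within 1 kb of a start site in each of the 4 deposited lists, for somatic core, somatic regulatory, paralogue and all protein-coding genes; the number above each bar counts the genes. In the pooled list 9 of 14 somatic core genes and 17 of 18 somatic regulatory genes were reached, and 0 of 16 paralogues.

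In the lists that keep weaker peaks, most somatic subunits had a summit. The pooled list reached 26 of 32 (81.2%), against 55.1% of all protein-coding genes. Replicate 2 alone reached 26 of 32, against 59.9% of all protein-coding genes, and replicate 3 alone reached 25 of 32, against 52.4%. A summit in both replicate lists, not necessarily at the same place, was found for 22 somatic subunits (68.8%), against 46.3% of all protein-coding genes. Another 7 had a summit in a single replicate list. Prosalpha1, Prosbeta6 and Prosbeta7 had none in any list.

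Somatic subunits held few of the strongest peaks, in shares near or below those of all genes. Their strongest thresholded peak had a median signal of 162.9, against 229.7 for all protein-coding genes with such a peak. Over the whole lists the medians were nearer to those of all genes, and not always lower. They were 100.3 against 103.8 in the pooled list, 75.58 against 60.95 in replicate 2 and 36.32 against 39.62 in replicate 3. No somatic subunit had one of the 500 strongest pooled peaks, which reached 3.75% of all genes, and 2 of 32 (6.25%) had one of the 1000 strongest, against 6.81% of all genes. Among the 2850 strongest, the stronger part of the thresholded list, 4 of 32 (12.5%) were reached, against 16.1% of all genes. Among the 10000 strongest pooled peaks, a limit chosen after the values were seen, the count was 21 of 32 (65.6%), against 37.3% of all genes. The share of somatic subunits was thus near or below that of all genes among the 2850 strongest peaks, on counts of at most 4 genes. It was above that of all genes from rank 5701 on, and the thresholded count depends on where the list ends. Counted only for the gene with the nearest start site, 6 somatic subunits had a thresholded summit, against 19.3% of all protein-coding genes.

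**Figure D2:**
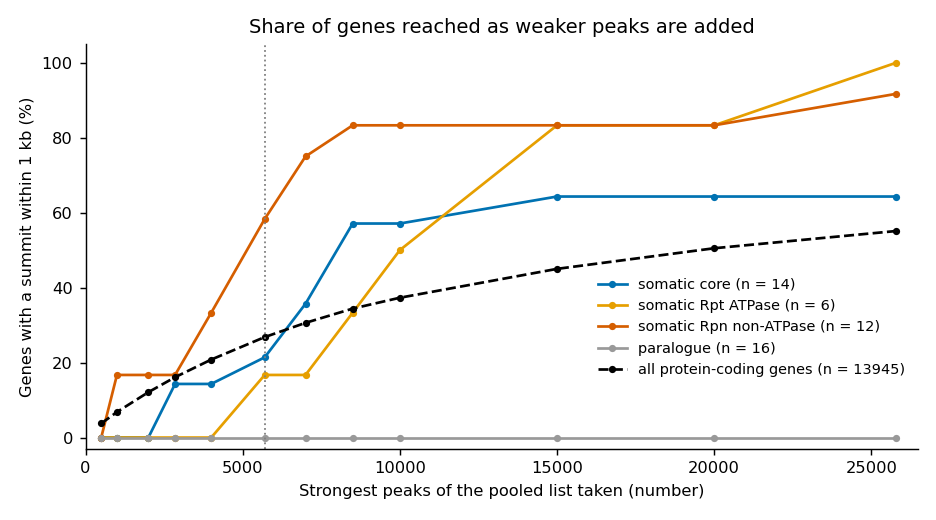
Share of genes with a summit within 1 kb (percent, vertical axis) as more of the strongest pooled peaks are taken (number of peaks, horizontal axis), for somatic core, Rpt and Rpn genes, paralogues and all protein-coding genes; the dotted line stands at the 5701 thresholded peaks. The Rpn line reaches 58.3% at that point and 83.3% at 10000 peaks, and the paralogue line stays at 0.

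Core particle genes had a thresholded summit in 3 of 14 cases (21.4%) and regulatory particle genes in 8 of 18 (44.4%), on either side of the 26.8% of all genes. This order did not hold in the 2850 strongest peaks, which reached 2 of 14 core genes (14.3%) and 2 of 18 regulatory genes (11.1%), against 16.1% of all genes. In the thresholded list the core genes reached were 2 of 7 alpha and 1 of 7 beta subunits. In the same list the Rpt ATPases had 1 of 6 (16.7%) and the Rpn non-ATPases 7 of 12 (58.3%). In the pooled list, which reached 55.1% of all genes, these counts were 9 of 14 core genes (64.3%) and 17 of 18 regulatory genes (94.4%), with all 6 Rpt genes and 11 of 12 Rpn genes among them. The 3 core genes had a median thresholded signal of 224.2 and the 8 regulatory genes of 152.5. In the pooled list the medians were 105.3 for core genes and 95.34 for regulatory genes, with 68.38 for Rpt and 123.6 for Rpn genes and 103.8 for all genes with a peak. No test was made of the difference between the particles.

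The 5701 strongest peaks of each replicate reached a smaller share of core than of regulatory genes. The thresholded list was made from these same replicates, so this is not separate evidence. In replicate 2 they reached 5 of 14 core (35.7%) and 9 of 18 regulatory genes (50%), against 27.4% of all protein-coding genes. In replicate 3 they reached 3 of 14 core (21.4%) and 7 of 18 regulatory genes (38.9%), against 25.4% of all protein-coding genes. The core count of 5 in replicate 2 is above the 3 of the thresholded list, and the core genes gained were Prosalpha6 and Prosbeta1. The 3 core genes of replicate 3 held Prosalpha7 (rank 4895) in place of Prosalpha4 (rank 7518).

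Among the non-ATPases, Rpn3, a scaffold subunit of the lid, had the strongest peak of any member. It spanned 19051712 to 19051898 on arm 2L, with a pooled signal of 492.9 (rank 600) and a summit 18 bp upstream. Its signal was 307 in replicate 2 (rank 586) and 170.4 in replicate 3 (rank 747), so all lists placed it near the same rank. The start site of l(2)37Bb lay 160 bp from that summit.

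Rpn5, another lid subunit, had 2 thresholded peaks on arm 3R beside the divergent histone acetyltransferase gene Hat1. The stronger, at 5789127 to 5789251 in an intron of Hat1, had a signal of 417.5 (rank 836) and a summit 270 bp upstream of Rpn5 and 149 bp from the start site of Hat1. Its neighbour at 5789337 to 5789517 had a signal of 320.2 (rank 1333), 62 bp upstream of Rpn5 and 47 bp from the start site of Hat1. Both summits were nearer to Hat1 than to Rpn5, and they did not fall on the same bases in the replicates. Replicate 2 had summits 313 and 101 bp upstream with signals of 226 (rank 1080) and 205.6 (rank 1244). Replicate 3 had a peak of signal 206.8 (rank 502) with its summit 195 bp upstream, and a weak peak of signal 30.17 (rank 8353) 8 bp downstream. With Rpn3 at 187 bp, these peaks of 125 and 181 bp were the narrow ones, and the other 11 thresholded peaks near members were each 416 bp wide. The weaker pooled peaks near members were all 416 bp wide too, so that width is not read as a measured breadth. In replicate 3 the peaks of Rpn3 and Rpn5 were each 396 bp wide, as were the other peaks near members.

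Rpn11, the deubiquitinase of the lid, was the only subunit with a thresholded peak but no gene starting in the opposite direction within 1 kb of its own start site. Its peaks on arm 2L spanned 5059710 to 5060125 (signal 162.9, rank 3533, 128 bp upstream) and 5059912 to 5060327 (signal 134.8, rank 4413, 330 bp upstream). Signals were 102.9 and 82.77 in replicate 2 and 69.95 and 37.07 in replicate 3, so the summit closer to Rpn11 was the stronger in each. The other start site within 1 kb of these summits, that of qtc, was 897 bp from the stronger summit and 695 bp from the weaker. Both summits thus lay between the start sites of Rpn11 and qtc, and the intervals of the 2 peaks overlapped.

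The other thresholded Rpn peaks lay in divergent promoters, at pooled ranks from 3048 to 4940. Rpn6, a lid scaffold subunit, had a signal of 183.3 (2R 14752190 to 14752605, 127 bp upstream of the downstream of its 2 start sites), with 121.4 in replicate 2 and 62.58 in replicate 3, and shared the summit with ave, a gene of Ras signalling. Rpn13, a ubiquitin receptor, had 142.2 (2R 13960262 to 13960677, 66 bp upstream), with 90.82 in replicate 2 and 61.7 in replicate 3, beside the cathepsin gene CtsL1. Both ranked between 2865 and 4139 in each list.

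Rpn7, another lid scaffold subunit, had 123.6 (3R 22462053 to 22462468, 207 bp upstream), with 90.79 in replicate 2 (rank 4091) and 28.96 in replicate 3 (rank 8828), beside the clathrin adaptor gene AP-2mu. Rpn8, the inactive partner of Rpn11, had 122.3 (2R 24402592 to 24403007, 205 bp upstream of the downstream of its 2 start sites), with 84.98 in replicate 2 and 47.95 in replicate 3, beside the kinase gene Slik. Rpn7 therefore ranked lower in replicate 3, and Rpn8 had no thresholded summit when the start site farthest upstream alone was used.

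Of the ATPases, Rpt5 alone was in the thresholded list. Its peak at 3R 23752648 to 23753063 had a signal of 135.8 (rank 4373) with the summit 20 bp upstream, and 22 bp from the start site of RanBP3. Replicate 2 gave 85.02 (rank 4438) and replicate 3 gave 51.99 (rank 4376), so the ranks differed little. The other 5 ATPase genes had weaker pooled peaks: Rpt2 had 88.13 (rank 7151), Rpt1 74.13 (rank 8531), Rpt3 62.62 (rank 10186), Rpt6 54.73 (rank 11773) and Rpt4 33.59 (rank 22981). Rpt2 had a summit in both replicates, 54 and 27 bp downstream of the start site. Rpt1 had none in replicate 2, and Rpt3 had none in replicate 3. At Rpt4 the summits of replicates 2 and 3 stood 612 and 92 bp upstream, among the weakest peaks of each list.

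In the core, Prosbeta2, the subunit with trypsin-like activity, had 2 thresholded peaks between its start site and that of mRpL39, a mitochondrial ribosomal protein gene. The stronger, at 3L 14999541 to 14999956, had a signal of 225.2 (rank 2300), 202 bp upstream of Prosbeta2 and 83 bp from the start site of mRpL39. The weaker, at 14999740 to 15000155, had a signal of 108.4 (rank 5688), 3 bp upstream, and was among the last in the thresholded list, whose lowest signal was 108.1. The intervals of the 2 peaks overlapped, and summits of the replicates fell within 3 bp of both summits. The stronger peak had 163.4 in replicate 2 (rank 1840) and 64.33 in replicate 3 (rank 3353), and the weaker had 85.51 (rank 4407) and 18.76 (rank 17855).

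Prosalpha3 had a signal of 224.2 (2R 20994630 to 20995045, rank 2317), 62 bp upstream, with dgt3 of the augmin complex starting 457 bp away. Replicate 2 gave 130.3 (rank 2597) and replicate 3 gave 96.52 (rank 1922). Prosalpha4 had 121.9 (X 16275749 to 16276164, rank 4967), 313 bp upstream, with 84.12 in replicate 2 (rank 4492) and 32.88 in replicate 3 (rank 7518). This summit lay in an intron of kat80, the gene of a katanin subunit, 40 bp from the start site of kat80. A second pooled peak, 57 bp upstream of Prosalpha4 and 33 bp from the start site of kat80, had a signal of 87.32 (rank 7220). Both summits were nearer to kat80 than to Prosalpha4. Both Prosalpha3 and Prosalpha4 are subunits of the alpha ring.

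**Figure D3:**
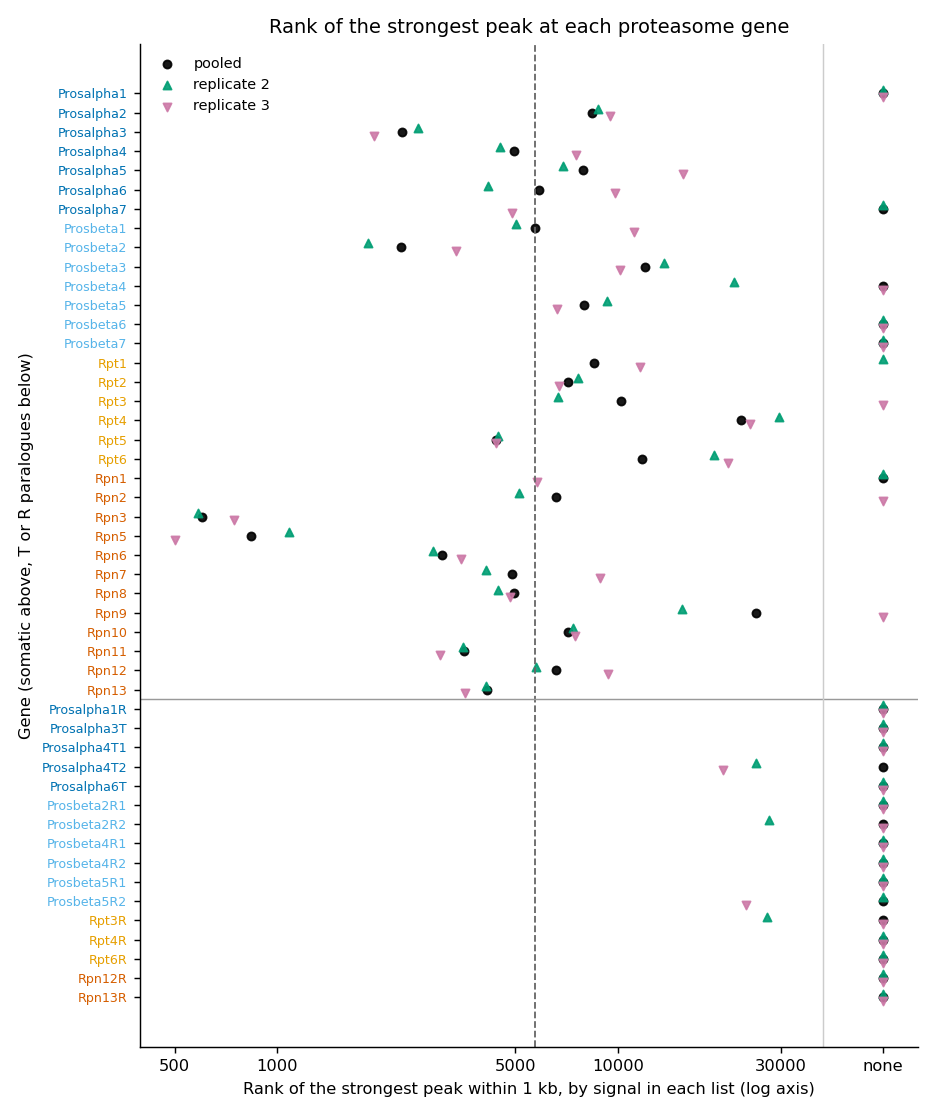
Rank of the strongest peak within 1 kb of each of the 48 genes (horizontal axis, log scale, strongest at the left) in the pooled list and in the lists of replicates 2 and 3, with genes that have none at the right; label colours mark alpha, beta, Rpt and Rpn genes, and the dashed line stands at rank 5701. Rpn3 (pooled rank 600) and Rpn5 (836) are farthest left, and the paralogues have no pooled peak and only ranks from 20328 to 27841 in single replicates.

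Of the remaining core genes, Prosbeta1 and Prosalpha6 were just under the limit of the thresholded list. Prosbeta1, with caspase-like activity, had a pooled signal of 107.9 (rank 5720), 90 bp upstream and 31 bp from the start site of Rrp42, an exosome subunit gene. Its rank was 5011 in replicate 2 and 11168 in replicate 3. Prosalpha6 had 105.3 (rank 5877) at a summit 195 bp upstream and 60 bp from the start site of the sterol transport gene Npc1a. Its strongest peak ranked 4156 in replicate 2, 197 bp upstream, and 9817 in replicate 3, 90 bp upstream. The replicate 3 summit was not within 100 bp of that pooled summit. These 2 genes were inside the 5701 strongest peaks in replicate 2 and outside them in replicate 3. Prosalpha5 had 79.84 (rank 7912), Prosbeta5, with chymotrypsin-like activity, 79.45 (rank 7946), Prosalpha2 75.11 (rank 8418) and Prosbeta3 53.77 (rank 12011). Prosalpha2 and Prosbeta3 had summits of both replicates within 35 bp of the pooled one.

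The core also held 5 of the 6 somatic subunits without a pooled summit. Prosalpha7 had a summit in replicate 3 only, 31 bp upstream with a signal of 47.37 (rank 4895), and Prosbeta4 in replicate 2 only, with 21.98 (rank 21917). Prosalpha1, Prosbeta6 and Prosbeta7 were the genes without a summit in any list. The nearest thresholded summit was 1099 bp downstream of the start site of Prosbeta6, at CG4098 (28 bp from its start site, signal 215.6), 3289 bp downstream of Prosalpha1, at phr, and 3524 bp upstream of Prosbeta7, at Cerk.

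Of the Rpn genes outside the thresholded list, Rpn12, a lid subunit, had 95.34 (rank 6573), the base scaffold Rpn2 94.98 (rank 6596), the ubiquitin receptor Rpn10 88.1 (rank 7155) and Rpn9 31.33 (rank 25417). Rpn12 and Rpn10 had a summit in both replicates within 19 bp of the pooled one. Rpn2 was in replicate 2 with 74.89 (rank 5123), and Rpn9 with 28.44 (rank 15422), and neither had a summit in replicate 3. Rpn1, the other large base scaffold, had a summit in replicate 3 only, 82 bp upstream with a signal of 41.13 (rank 5774).

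Of the 15 somatic subunits with a pooled summit below the limit, 10 were within the 10000 strongest. Their strongest signals ran from 31.33 at Rpn9 to 107.9 at Prosbeta1.

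**Figure D4:**
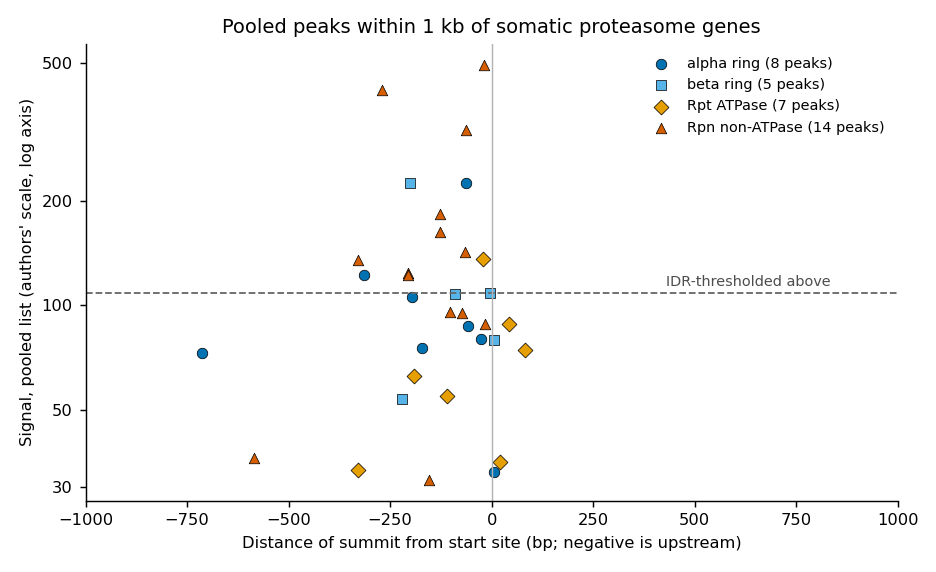
Signal of each pooled peak within 1 kb of a somatic subunit (vertical axis, authors' scale, log axis) against the distance of its summit from the start site (bp, negative is upstream), by subunit class; the dashed line marks the lowest thresholded signal, 108.1. All 14 thresholded peaks lie upstream of the nearest start site of their gene, at 3 to 330 bp.

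Distances of the nearest thresholded summit were 2817 bp in the median for somatic subunits, against 5501 bp for all protein-coding genes. For the somatic subunits without a thresholded summit within 1 kb they ran from 1099 bp at Prosbeta6 to 13299 bp at Prosalpha7. Rpn12 followed with 1546 bp (peak nearest Smn), Rpn2 with 1643 bp (eIF2D), Rpn10 with 2467 bp (COX8) and Prosalpha2 with 2747 bp (Srlp). At Rpt2 it was 2887 bp, at Rpt6 3382 bp, at Prosbeta5 3459 bp, at Rpt4 4037 bp, at Rpn9 6082 bp and at Prosbeta1 7070 bp. The farthest were Prosalpha5 with 7262 bp, Prosbeta3 with 8055 bp, Rpn1 with 8337 bp, Prosalpha6 with 9959 bp, Prosbeta4 with 11034 bp, Rpt1 with 11594 bp, Rpt3 with 12507 bp and Prosalpha7. In the pooled list the median was 96.5 bp for somatic subunits and 606 bp for all genes.

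Where a somatic subunit had a thresholded peak, the strongest lay a median of 128 bp from its start site, against 174 bp for all genes reached. The median was 202 bp for the 3 core genes and 127.5 bp for the 8 regulatory genes. All 11 were upstream of the nearest start site of the gene, against 86.3% of those of all genes. Every one of the 14 thresholded peaks had a summit within 100 bp in both replicates, at a median of 10.5 bp in replicate 2 and 18 bp in replicate 3. Since the list was made from these replicates together, at least part of that follows from its making. No share or median over all thresholded peaks is given beside these values, so they are not read as a trait of the members.

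All 14 thresholded peaks also had the start site of another protein-coding gene within 1 kb, and at 7 of them the member was the nearest gene. No share over all thresholded peaks is given beside these counts, so they describe only these 14 peaks. A gene starting in the opposite direction within 1 kb upstream, a head-to-head partner, was annotated for 22 of 32 somatic subunits (68.8%), against 36.2% of all protein-coding genes. It was present for 10 of 14 core and 12 of 18 regulatory genes. Among genes with such a partner, 10 of 22 somatic subunits (45.5%) had a thresholded summit, against 46.3% of all such genes. Without a partner, 1 of 10 (Rpn11) had one, against 15.7% of all such genes. With a partner, the thresholded share of the somatic subunits was thus close to that of other genes of the same arrangement. Without a partner, the count of 1 is too small to place the share above or below that of other genes.

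In the pooled list the somatic share was above that of all genes in both arrangements, with 19 of 22 (86.4%) against 75.3% of all genes with a partner, and 7 of 10 (70%) against 43.7% without. Of the core genes with a partner 7 of 10 had a pooled summit, and of the regulatory genes with a partner all 12 did. A summit between divergent genes cannot be assigned to either gene from these lists.

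The paralogues had no thresholded or pooled summit within 1 kb, against 26.8% and 55.1% of all protein-coding genes. In single replicates, 3 of 16 (18.8%) had a summit in replicate 2, against 59.9% of all protein-coding genes. In replicate 3 the count was 2 of 16 (12.5%), against 52.4%, and Prosalpha4T2 was in both. Its summits were not the same site: that of replicate 2 lay 701 bp upstream (signal 19.83, rank 25362) and that of replicate 3 839 bp downstream (17.45, rank 20328). Rpt3R had 18.75 in replicate 2 (rank 27422), 110 bp downstream, with Alg12 starting 91 bp away. Prosbeta2R2 had 18.55 in replicate 2 (rank 27841), 288 bp upstream, with CG1116 starting 159 bp away. Prosbeta5R2 had 16.02 in replicate 3 (rank 23780). These peaks were among the weakest of their lists, and the other 12 paralogues had none.

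The nearest thresholded summit lay a median of 24500.5 bp from a paralogue, and the nearest pooled summit 5062 bp. The closest thresholded ones were 2987 bp from Rpt3R, 3403 bp from Prosbeta2R2 and 6382 bp from Prosalpha1R. A head-to-head partner was annotated for 4 of 16 paralogues (25%), against 36.2% of all protein-coding genes. None of these 4 had a pooled summit, against 75.3% of all genes with a partner. None of the 12 without a partner had a pooled summit, against 43.7% of all such genes. Of the 12 somatic subunits that have a paralogue, 10 had a pooled summit. In the thresholded list 4 of the 12 had one: Prosalpha3, Prosalpha4, Prosbeta2 and Rpn13. The 6 paralogues of those 4 had none. Expression was not measured in these files.

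Promoters were searched on both strands for 9 sequences, chosen with earlier results of these data known. The window ran from 250 bp before to 50 bp after the start site farthest upstream. It does not hold the summits of Rpn6, Rpn8 and Prosalpha4 or the more upstream summits of Rpn5 and Rpn11. The DRE, known in Drosophila as the binding sequence of the factor DREF, was in 12 of 32 somatic promoters (37.5%), in 0 of 16 paralogue promoters and in 9.36% of all promoters. Core and regulatory genes had it in 6 of 14 and 6 of 18 promoters. It was in 6 of 11 promoters of somatic subunits with a thresholded summit (54.5%) and in 6 of 21 without (28.6%). Its shorter core CGATA, which every DRE contains, was in 27 of 32 somatic, 8 of 16 paralogue and 47.4% of all promoters.

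Of the sequences linked with proteins of the E(spl) family, the E-boxes CACGTG and CACGCG were in none of the 32 somatic or 16 paralogue promoters, against 4.20% and 6.12% of all promoters. The N-box CACNAG was in 10 of 32 somatic (31.2%), 7 of 16 paralogue (43.8%) and 29.7% of all promoters. The looser E-box CANNTG, which includes CACGTG, was in 23 of 32 somatic (71.9%), 11 of 16 paralogue (68.8%) and 77.2% of all promoters. An absent match says only that these letters were not in the window.

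Of the other sequences, the core of Motif 1 (GGTCACACT), a fly core promoter sequence, was in 5 of 32 somatic, 0 of 16 paralogue and 6.05% of all promoters. The element of Cnc and Maf factors (TGACNNNGC), known in flies and mammals to act at proteasome genes, was in 5 of 32 somatic, 1 of 16 paralogue and 8.63% of all promoters. GAGAG, the sequence of the GAGA factor, was in 3 of 32 somatic (9.38%), 6 of 16 paralogue (37.5%) and 29.7% of all promoters. The median GC content was 33.5% for somatic, 32.7% for paralogue and 38.0% for all promoters. Its part in these shares was not tested.

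**Figure D5:**
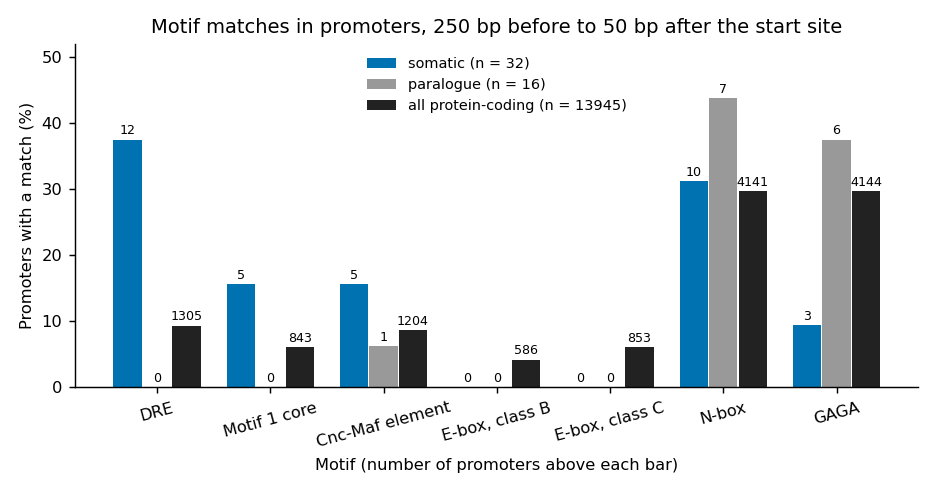
Share of promoters (percent, vertical axis) with a match to each of 7 sequences, for somatic subunits, paralogues and all protein-coding genes, with the number of promoters above each bar. The DRE is in 12 of 32 somatic promoters and 0 of 16 paralogue promoters; the class B and class C E-boxes are CACGTG and CACGCG.

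At the summits themselves, within 50 bp to each side, the DRE was in 3 of 14 thresholded windows near members (21.4%), against 2.99% of the 3082 thresholded windows near any protein-coding start site. The 3 were at Prosalpha3, Rpt5 and the weaker peak of Prosbeta2. CGATA was in 5 of 14, against 20.5%. The N-box was in 1 of 14, against 10.6%, and CANNTG in 1 of 14 (7.14%), against 34.8%; within 100 bp to each side CANNTG was in 6 of 14 (42.9%), against 58.7%. CACGTG was in none, against 0.876%, and neither were CACGCG (1.30%), Motif 1 (0.844%) or the Cnc and Maf element (2.37%). GAGAG was in 1 of 14, against 8.34%. Windows of neighbouring peaks at Prosbeta2, Rpn5 and Rpn11 belong to the same promoters and are not independent.

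Genes that work with the proteasome were listed for comparison, with earlier results of these data known. Of these, 13 of 24 (54.2%) had a thresholded summit within 1 kb, against the 26.8% of all genes. The strongest peaks were at Keap1, the inhibitor of the Cnc factor (778.6, rank 212, 853 bp upstream), Pomp, an assembly factor of the core (432, rank 779), the polyubiquitin gene Ubi-p63E (286.7) and cnc itself (273.8). Sem1, a small subunit of the regulatory particle whose symbol the rule does not take, had a pooled signal of 78.7 (rank 8032). The COP9 signalosome, a relative of the lid, had 3 of 9 genes reached, alien (477.6), CSN5 (280) and CSN3 (187).

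The chaperonin CCT had 4 of 8, namely CCT8 (264.4), CCT3 (224.6), CCT6 (155.6) and CCT5 (138.3). Cytoplasmic ribosomal protein genes had 63 of 87 (72.4%), a larger share than the 11 of 32 of the somatic proteasome subunits, with RpS27 (650.4), RpL34b (643.2), RpL7 (637.5) and RpS20 (537.4) strongest. RpS27A (160.5) and RpL40 (no thresholded summit) were counted among both the partner genes and the ribosomal protein genes. No test was made between these lists.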

How the data were processed

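Per the labels, ChIP-seq was done on 2 biological replicates of 1 group. Per the deposited listings, the authors called peaks on each replicate and on both together, each with a control file, as input for IDR, and made a thresholded list; how reads were aligned, and with which peak caller, is not given in the sources. The signal value of each peak was deposited by the authors and its scale is not stated. The other column used, deposited by the authors, was the offset of the summit from the start of the peak. Depth is unknown, so no counting error can be given.

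The dm6 lists held 5701 (thresholded), 25791 (pooled), 30000 (replicate 2) and 24781 (replicate 3) peaks. Start sites came from Ensembl release 115 (BDGP6.54), with all annotated start sites of each protein-coding gene. A summit within 1 kb of any of them counted for the gene, and its strongest peak gave signal and rank. The assignment was tested on simulated data. Work was done in Python 3.11.15 with numpy 2.4.6. No test was made and no p-value is given. Every member is accounted for. All somatic subunits were named with their peaks, and so were the 3 paralogues with the strongest and the 3 with the closest peaks and up to 4 genes of each other list. Members, lists and motifs were chosen with earlier results of these data known. One symbol of the related lists, Ecm29, was not matched.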

Additional observations from a re-analysis of the deposited data

How the results depend on the processing

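No paired analysis was possible because the samples form 1 group and no groups share replicate numbers. With the stricter list of 2850 peaks, thresholded counts were 4 of 48 members, 4 of 32 somatic, 2 of 14 core, 2 of 18 regulatory, 0 of 6 Rpt, 2 of 12 Rpn, 6 of 24 partner, 2 of 8 CCT and 38 of 87 ribosomal protein genes. That list reached 16.1% of all protein-coding genes. With the nearest start site only, the counts were 6 of 48, 6 of 32, 2 of 14 core (14.3%) and 4 of 18 regulatory genes (22.2%). They were 3 of 12 Rpn, 1 of 9 COP9 and 2 of 8 CCT genes. This setting reached 19.3% of all protein-coding genes, so the regulatory share was then near that of all genes. With the strongest 10000 pooled peaks, chosen after seeing the data, the counts were 21 of 48, 21 of 32, 8 of 14 core, 13 of 18 regulatory, 3 of 6 Rpt and 7 of 8 CCT genes. Those peaks reached 37.3% of all protein-coding genes. With either replicate left out, the core count ran from 3 to 5, the 5 coming without replicate 3. The shares of all protein-coding genes were 25.4% without replicate 2 and 27.4% without replicate 3. With windows of 100 bp to each side of the 14 summits, the DRE was in 5 (35.7%, against 6.29% of all 3082 windows), CGATA in 9 (64.3%, against 35.8%), the N-box in 2 (14.3%, against 20.4%), GAGAG in 2 (14.3%, against 19.3%) and CANNTG in 6 (42.9%, against 58.7%). All alternatives for the related gene lists were also added after seeing the data. The cause of these moves was not tested beyond the number of peaks or start sites that each setting leaves. The paralogue count was 0 in every alternative run. The remaining counts stayed within 1.5 times their main value.

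The 2 replicates are the only measure of error, depth is unknown, and a summit between divergent genes cannot be assigned to either. No control sample was analysed here.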
